A study of Canis lupus familiaris with 6 samples.

Results

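Interferon-stimulated genes are the antiviral genes that cells switch on after type I or type III interferon binds its receptor. They were examined in RNA sequencing of CMM12 and CMM2, a pair of canine melanoma cell lines. Of 39 gene symbols chosen by name for this response, 31 were listed among the 30951 genes of the deposited tables and 30 passed the filter on low counts, among 12270 genes tested in all. The exception was XAF1, a pro-apoptotic protein, with 2 counts in CMM2 KO 2 and 0 in every other library. SAMD9, MX1, IFIH1, IRF7, IRF9, USP18, HERC5 and CMPK2 were not analysed here, and neither were sequences or genome positions. Each line was sequenced as 2 podoplanin knockout (KO) libraries, labelled KO 1 and KO 2, and 1 control library of wild-type genotype. The labels give only line, genotype and KO number, so how the KO lines were made, whether each is a clone and whether the control went through the same handling are not given in the sources used here. They do not name separate cultures either. The p-values therefore rest on a spread between libraries, with KO 1 and KO 2 treated as replicates. That spread may be technical or may hold a difference between the KO lines. The comparisons ask whether the genes move with the loss of podoplanin, a mucin-like membrane protein, and how the lines differ.

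The pathway runs from sensing to effect. RIG-I-like receptors detect foreign RNA in the cytoplasm and induce interferon. Interferon receptors act through JAK kinases on transcription factors that include STAT2, which binds DNA together with IRF9. The induced genes make enzymes and restriction factors that destroy RNA, block translation or hold virus particles at the membrane. In tumour cells many of these genes keep a low level of expression without added interferon.

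The library totals ran from 9732927 to 11807835 expected counts, estimated read counts that need not be whole. PDPN, the targeted gene, stood at 16.0 and 10.8 TPM (a level per transcript length, scaled to a fixed sum in each library) in CMM12 KO 1 and KO 2, against 94.3 TPM in the CMM12 control. It stood at 5.71 and 5.96 TPM in CMM2 KO 1 and KO 2, against 19.1 TPM in the CMM2 control, so every KO library was below its control with reads remaining. The labels call the cells canine melanoma. Of 11 melanocyte markers, 6 reached 1 TPM in at least 1 library (MITF, PMEL, TYRP1, S100A1, GPNMB and RAB27A). PMEL did so only in CMM12 KO 2, and TYRP1 was at 0 in every CMM2 library. MLANA, TYR, SOX10 and S100B had no more than 1 count in any library, and DCT was at 0 in every library. The leukocyte markers PTPRC, CD3E, CD4, CD8A, MS4A1 and LYZ, 6 of the 10 listed, were at 0 in every library. CD68 and CSF1R reached 1 TPM. CD68 stood at 1.53 and 1.51 TPM in the CMM12 KO libraries, against 1.33 TPM in the control, and at 2.17 and 1.08 TPM against 3.41 TPM in CMM2. CSF1R stood at 1.07 and 1.71 TPM against 0.27 TPM in CMM12, and at 0.06 and 0.24 TPM against 0.03 TPM in CMM2. Of the 3 plasmacytoid dendritic markers listed, IL3RA and GZMB were at 0 in every library, while TCF4 stood at 10.5 and 13.8 TPM in the CMM12 KO libraries, against 25.3 TPM in the CMM12 control, and at 8.87 and 10.2 TPM in the CMM2 KO libraries, against 6.46 TPM in the CMM2 control. The leukocyte list summed to 2.76 and 3.27 TPM in the CMM12 KO libraries, 1.65 TPM in the CMM12 control, 2.23 and 1.32 TPM in the CMM2 KO libraries and 3.49 TPM in the CMM2 control. CMM2 KO 2 stood furthest from its control, with 6.29% of genes of at least 10 CPM (counts scaled to library size) differing by 2-fold or more, against 0.954% in CMM2 KO 1, 4.68% in CMM12 KO 1 and 4.64% in CMM12 KO 2. The 7 fibroblast markers summed to 820 and 1361 TPM in the CMM12 KO libraries, against 2185 TPM in the CMM12 control, and to 787 and 2779 TPM in the CMM2 KO libraries, against 343 TPM in the CMM2 control. COL1A1, COL1A2, COL3A1 and LUM were below the control in both CMM12 KO libraries, and DCN lay on both sides of it. PDGFRA (11.5 and 20.8 against 10.2 TPM) and PDGFRB (1.75 and 3.39 against 1.00 TPM) were above it. The keratinocyte list summed to 40.8 and 36.8 against 51.0 TPM in CMM12, and to 16.8 and 30.2 against 22.5 TPM in CMM2. The endothelial list summed to no more than 2.42 TPM in any library. The part of these markers in the results was not tested.

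Per transcript length, the levels of the 31 genes spanned from near 0 to 59.5 TPM. OAS2 (ENSCAFG00000023107), an oligoadenylate synthetase, had the highest mean level over the 6 libraries at 40.0 TPM, followed by the RNA-binding IFIT5 (ENSCAFG00000007151) at 39.3 TPM and SAMD9L (ENSCAFG00000002007), a restriction factor that limits translation, at 32.9 TPM. OAS1 and TRIM25 followed at 29.4 and 27.4 TPM. Neighbours in this order were not separated: OAS2 ranged from 18.9 to 59.5 TPM and IFIT5 from 28.7 to 48.5 TPM. At the low end RSAD2 (viperin, an enzyme that makes a chain-terminating nucleotide) averaged 0.20 TPM, IFIT1 0.167 TPM and XAF1 0.0167 TPM. ISG15, the ubiquitin-like modifier that is among the most inducible genes of the response, averaged 3.09 TPM. The levels of all listed genes summed to 348 and 375 TPM in the CMM12 KO libraries, against 279 TPM in the CMM12 control, and to 347 and 382 TPM in the CMM2 KO libraries, against 298 TPM in the CMM2 control. The sum is weighted to the abundant genes. Without OAS1, OAS2 and SAMD9L, an alternative chosen after their values were seen, it was 248 and 254 TPM against 213 TPM in CMM12, and 224 and 261 TPM against 215 TPM in CMM2.

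**Figure D1:**
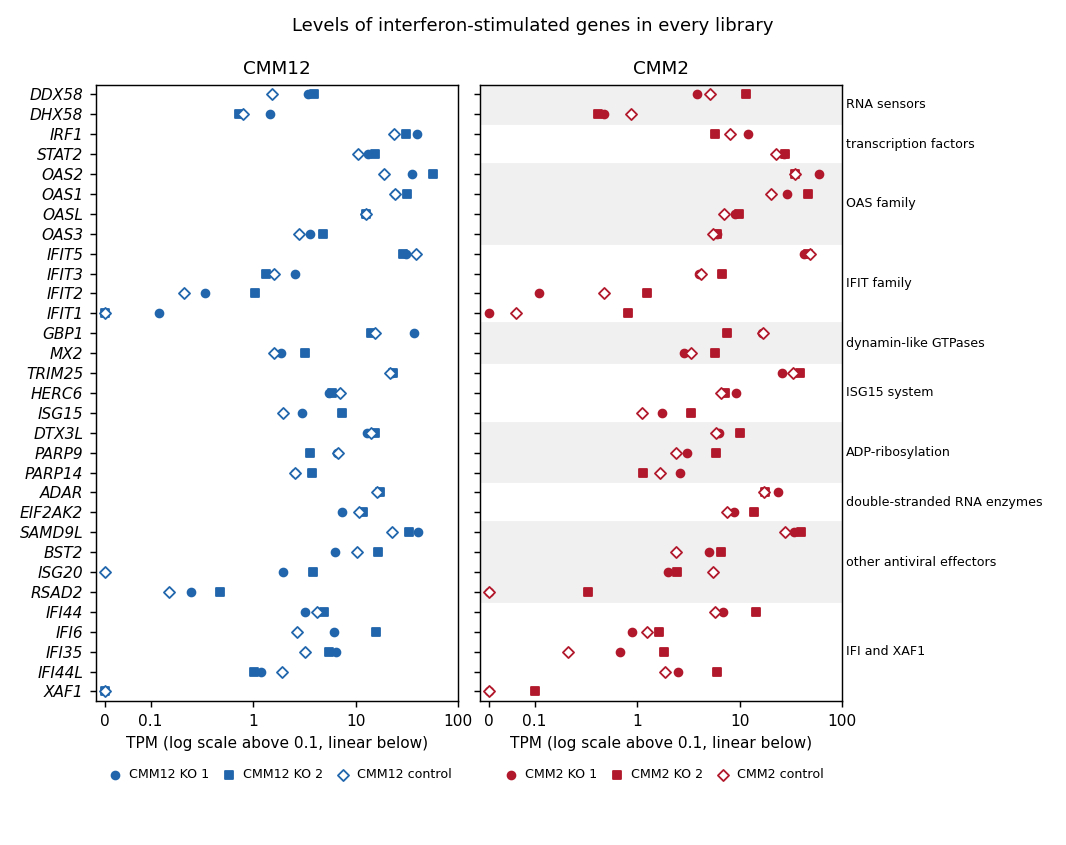
Level of each of the 31 listed genes in every library, in TPM on an axis that is logarithmic above 0.1 and linear below, with CMM12 on the left and CMM2 on the right. Filled points are the KO libraries (circle KO 1, square KO 2), open diamonds the control, and rows are ordered by role; OAS2, IFIT5 and SAMD9L lie between 18.9 and 59.5 TPM while IFIT1, RSAD2 and XAF1 stay under 1 TPM.

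Across both lines, no interferon-stimulated gene passed the test for a KO effect, although most had a higher fitted level in the KO libraries. At an adjusted p under 0.05 (edgeR's quasi-likelihood test with Benjamini-Hochberg adjustment over all genes, line as a term), 0 of 30 were called, where 0% of all genes were called, and the smallest adjusted p was 0.987 among these genes and 0.214 among all genes. DESeq2 called 0 of the 30, against 0.0733% of all genes. The unadjusted edgeR p was under 0.05 for 3 of the 30 (OAS1, SAMD9L and OAS2), against 4.03% of all genes, all 3 higher in KO. The fitted log2 fold change was above 0 for 28 of the 30, against 52.0% of all genes, with a median of 0.37 against 0.01 over all genes. Single libraries were less uniform than this pooled fit. In CMM12 KO 1 and KO 2, 23 and 21 of the 30 lay above the control (50.3% and 50.7% of all genes). In CMM2 KO 1 and KO 2 it was 19 and 22 (48.5% and 47.5% of all genes). In bulk RNA, a change in the share of cells that express a gene and a change in its RNA per cell cannot be told apart. Each line has 1 control library, so an unusual control and a KO effect cannot be told apart either.

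Library by library, 7 of the 30 genes had all 4 KO libraries above the control of their line in CPM, against 10.5% of all genes. They were STAT2, SAMD9L, OAS3, IFI6, IFI35, ISG15 and OAS1. IFIT5 had all 4 below, against 10.6% of all genes. Leaving out CMM2 KO 2, chosen after seeing the data, left 11 genes with all 3 remaining KO libraries above their control, against 17.8% of all genes. In TPM, 6 genes had all 4 above: ADAR joined, and OAS1 and IFI6 dropped out. In TPM this held for 9.52% of all genes.

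Counting only genes with at least 10 counts in both libraries, the share at least 1.5-fold above the control was above that of all genes in each KO library. It was 9 of 24 in CMM12 KO 1 (10.9% of all genes), 8 of 24 in CMM12 KO 2 (12.0%), 4 of 24 in CMM2 KO 1 (5.70%) and 10 of 23 in CMM2 KO 2 (15.1%). The share at least 1.5-fold below was also above that of all genes in CMM2, with ISG20 and DHX58, 2 of 24, in CMM2 KO 1 (3.07% of all genes) and ISG20, PARP14 and GBP1, 3 of 23, in CMM2 KO 2 (8.66%). In CMM12 it was lower, with BST2 alone in KO 1 (12.4% of all genes) and IFI44L alone in KO 2 (11.3%). On the upper side, DDX58, IRF1, OAS2, OAS3 and IFI35 passed 1.5-fold in both CMM12 KO libraries, and PARP9 and BST2 did so in both CMM2 KO libraries. Both ratios of a line share its control and are not independent, and the share of all genes that passed in both was not counted.

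**Figure D2:**
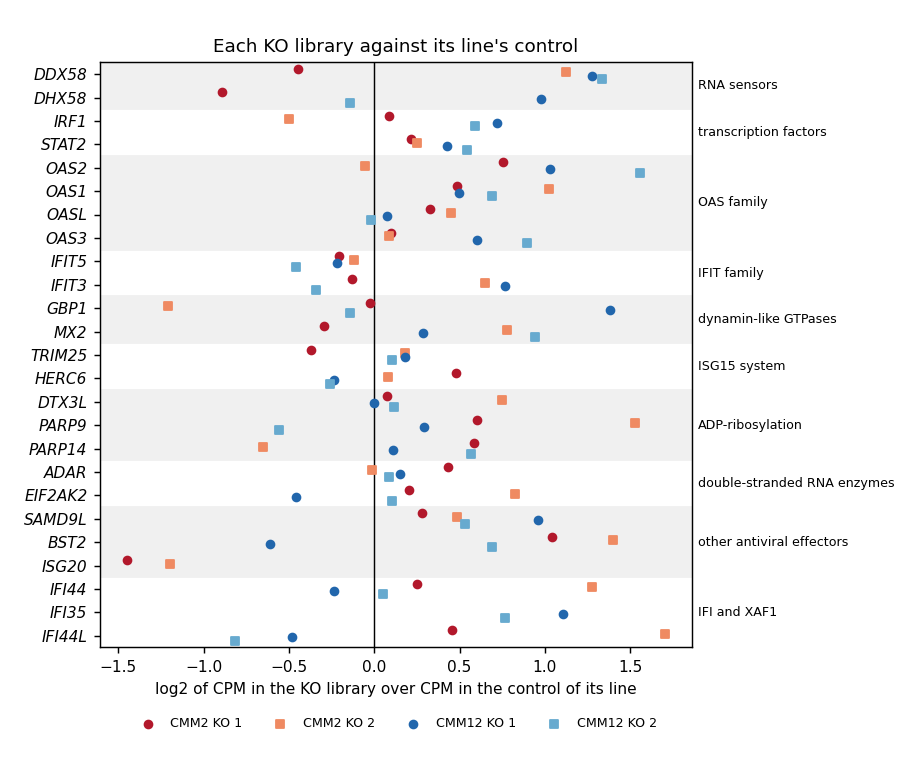
Log2 ratio of the CPM in each KO library to the CPM in the control of its line, for the 25 genes with at least 10 counts in some pair of KO and control libraries, ordered by role; points are drawn for pairs with that many counts in both. Circles are KO 1 and squares KO 2, red and orange for CMM2 and dark and light blue for CMM12, and the line at 0 marks the control; STAT2, OAS1, OAS3 and SAMD9L lie to its right in every library and IFIT5 to its left.

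The oligoadenylate synthetases bind duplex RNA and make the short oligoadenylates that switch on RNase L. OAS1 (ENSCAFG00000023556) had 312 and 333 counts in CMM12 KO 1 and KO 2, against 234 in the CMM12 control, and 426 and 571 counts in CMM2 KO 1 and KO 2, against 278 in the CMM2 control. All 4 KO libraries were above their control. Its log2 fold change across lines was 0.69 (standard error, SE, 0.23; 1.61-fold), with an unadjusted p of 0.0183 and an adjusted p of 0.987 in edgeR. In TPM, OAS1 in CMM12 KO 1 (24.3) was level with the CMM12 control (24.5).

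OAS2 had 35.6 and 56.3 TPM in the CMM12 KO libraries, against 18.9 TPM in the CMM12 control, and 59.5 and 34.6 TPM in the CMM2 KO libraries, against 34.9 TPM in the CMM2 control. CMM2 KO 2 was level with its control and the other 3 KO libraries were above. The log2 fold change across lines was 0.83 (SE 0.32, 1.78-fold, adjusted p = 0.987 in edgeR). OAS3 had 3.59 and 4.82 TPM in the CMM12 KO libraries, against 2.82 TPM in the CMM12 control, and 6.01 and 6.05 TPM in the CMM2 KO libraries, against 5.54 TPM in the CMM2 control, so the gap was narrow in CMM2. OASL, which lacks the synthetase activity in humans, had 12.3 and 12.6 TPM in the CMM12 KO libraries, against 12.7 TPM in the CMM12 control, and 9.00 and 9.97 TPM in the CMM2 KO libraries, against 7.11 TPM in the CMM2 control. The fitted change of all 4 OAS genes was above 0, with a median of 0.54. OAS1, OAS3 and OAS2 are neighbours in the RefSeq gene order of the dog.

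SAMD9L had 40.3 and 33.0 TPM in the CMM12 KO libraries, against 22.6 TPM in the CMM12 control, and 34.1 and 39.8 TPM in the CMM2 KO libraries, against 27.7 TPM in the CMM2 control. All 4 KO libraries were above their control, and it was the most deeply counted of the 31 genes, with a mean of 1502 counts. The log2 fold change across lines was 0.57 (SE 0.20, 1.48-fold, unadjusted p = 0.0218, adjusted p = 0.987 in edgeR). BST2 (tetherin), which ties budding virus to the cell surface, had 6.23 and 16.6 TPM in the CMM12 KO libraries, against 10.3 TPM in the CMM12 control, and 4.99 and 6.54 TPM in the CMM2 KO libraries, against 2.42 TPM in the CMM2 control. The CMM12 KO libraries thus lay on both sides of their control.

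ISG20, an RNA exonuclease, and RSAD2 rested on few reads. ISG20 had 9 and 15 counts in the CMM12 KO libraries, against 0 in the CMM12 control, and 10 and 11 counts in the CMM2 KO libraries, against 25 in the CMM2 control. The lines therefore lay on opposite sides. Against a floor of 3 counts for the library at 0, the CMM12 KO level was at least 4.42-fold higher. RSAD2 had 7 and 11 counts against 4 in CMM12, and 0 and 9 counts against 0 in CMM2.

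The IFIT proteins bind viral RNA. IFIT5 had 31.0 and 28.7 TPM in the CMM12 KO libraries, against 39.2 TPM in the CMM12 control, and 42.5 and 46.0 TPM in the CMM2 KO libraries, against 48.5 TPM in the CMM2 control. It was lower in all 4 KO libraries, with a log2 fold change of -0.25 (SE 0.16, adjusted p = 0.987 in edgeR). IFIT3 had 2.54 and 1.35 TPM in the CMM12 KO libraries, against 1.61 TPM in the CMM12 control, and 4.06 and 6.72 TPM in the CMM2 KO libraries, against 4.17 TPM in the CMM2 control, with both sides of the control occupied in each line. IFIT2 had 0.34 and 1.05 TPM in the CMM12 KO libraries, against 0.21 TPM in the CMM12 control, and 0.11 and 1.26 TPM in the CMM2 KO libraries, against 0.48 TPM in the CMM2 control. IFIT1 and IFIT2 averaged only 2.67 and 8.17 counts.

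The dynamin-like GTPases also split by library. MX2, which in humans blocks the nuclear entry of some viruses, had 1.89 and 3.20 TPM in the CMM12 KO libraries, against 1.61 TPM in the CMM12 control, and 2.85 and 5.80 TPM in the CMM2 KO libraries, against 3.33 TPM in the CMM2 control. GBP1, a guanylate-binding protein that coats pathogen membranes, had 36.8 and 14.1 TPM in the CMM12 KO libraries, against 15.3 TPM in the CMM12 control, and 16.6 and 7.49 TPM in the CMM2 KO libraries, against 16.7 TPM in the CMM2 control. CMM12 KO 1 stood above the other libraries of its line for GBP1, and CMM2 KO 2 stood below those of its own.

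ISG15 is conjugated to proteins by ligases such as HERC6, its main ligase in the mouse. ISG15 (ENSCAFG00000019348) had 3.03 and 7.33 TPM in the CMM12 KO libraries, against 1.97 TPM in the CMM12 control, and 1.76 and 3.36 TPM in the CMM2 KO libraries, against 1.11 TPM in the CMM2 control. All 4 KO libraries were above their control, but the mean was only 10.7 counts and the 2.46-fold change had an SE of 0.77 on the log2 scale (adjusted p = 0.987 in edgeR). HERC6 had 5.45 and 5.88 TPM in the CMM12 KO libraries, against 6.97 TPM in the CMM12 control, and 9.32 and 7.17 TPM in the CMM2 KO libraries, against 6.60 TPM in the CMM2 control, below the control in CMM12 and above it in CMM2. TRIM25, a ubiquitin ligase that acts with RIG-I, stayed between 21.5 and 23.3 TPM in the CMM12 libraries and between 25.8 and 38.4 TPM in the CMM2 libraries.

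Among sensors and transcription factors, DDX58, the gene of RIG-I, had 3.41 and 3.90 TPM in the CMM12 KO libraries, against 1.53 TPM in the CMM12 control, and 3.83 and 11.6 TPM in the CMM2 KO libraries, against 5.15 TPM in the CMM2 control. Only CMM2 KO 1 was below its control. Its log2 fold change across lines was 0.89 (SE 0.46, adjusted p = 0.987 in edgeR). DHX58, the gene of LGP2, a regulator of RIG-I signalling, averaged 15.0 counts, with 1.45 and 0.73 TPM in the CMM12 KO libraries, against 0.80 TPM in the CMM12 control, and 0.48 and 0.42 TPM in the CMM2 KO libraries, against 0.88 TPM in the CMM2 control.

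STAT2 (ENSCAFG00000000121), a subunit of the transcription factor complex that interferon activates, had 13.1 and 15.6 TPM in the CMM12 KO libraries, against 10.6 TPM in the CMM12 control, and 26.8 and 27.9 TPM in the CMM2 KO libraries, against 22.8 TPM in the CMM2 control. All 4 KO libraries were above their control, with a log2 fold change of 0.35 (SE 0.18, 1.28-fold, adjusted p = 0.987 in edgeR). IRF1, an interferon-induced transcription factor, had 39.4 and 31.1 TPM in the CMM12 KO libraries, against 23.8 TPM in the CMM12 control, and 12.2 and 5.81 TPM in the CMM2 KO libraries, against 8.00 TPM in the CMM2 control. It was above its control in both CMM12 KO libraries and on both sides of it in CMM2.

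PARP9 and DTX3L form an ADP-ribosylating ubiquitin ligase, and PARP14 is a related ADP-ribosyltransferase. PARP9 had 6.63 and 3.56 TPM in the CMM12 KO libraries, against 6.77 TPM in the CMM12 control, and 3.04 and 5.86 TPM in the CMM2 KO libraries, against 2.38 TPM in the CMM2 control. DTX3L, its neighbour in the RefSeq gene order, had 13.0 and 15.5 TPM against 14.1 TPM in CMM12, and 6.27 and 10.1 TPM against 5.87 TPM in CMM2. In CMM12 KO 2 the deposited counts of PARP9 and DTX3L were fractional, 79.05 and 263.95, as RSEM gives for reads shared between genes. PARP14 had 2.54 and 3.79 TPM in the CMM12 KO libraries, against 2.56 TPM in the CMM12 control, and 2.64 and 1.14 TPM in the CMM2 KO libraries, against 1.69 TPM in the CMM2 control. Of the enzymes that act on duplex RNA, the translation-blocking kinase gene EIF2AK2 ranged from 7.29 to 11.8 TPM in CMM12 and from 7.59 to 13.9 TPM in CMM2, and the RNA editor ADAR from 16.1 to 17.2 TPM in CMM12 and from 17.3 to 23.7 TPM in CMM2. The ranges of the lines overlapped for EIF2AK2. For ADAR they nearly met in TPM, at 17.23 in CMM12 KO 2 and 17.29 in the CMM2 control. In CPM the lines did not overlap for ADAR, which held for 46.1% of all genes. The line difference of ADAR did not pass the test (adjusted p = 0.162 in edgeR).

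The remaining IFI genes are named for their induction by interferon. IFI35 (ENSCAFG00000014624) had 6.40 and 5.54 TPM in the CMM12 KO libraries, against 3.23 TPM in the CMM12 control, and 0.68 and 1.81 TPM in the CMM2 KO libraries, against 0.21 TPM in the CMM2 control. IFI6, an antiapoptotic membrane protein, had 23 and 38 counts in the CMM12 KO libraries, against 8 in the CMM12 control, and 4 and 8 counts in the CMM2 KO libraries, against 3 in the CMM2 control. Both genes were above the control in all 4 KO libraries, with log2 fold changes of 1.43 (SE 0.64) and 1.59 (SE 0.77), each with an adjusted p of 0.987 in edgeR. In TPM, CMM2 KO 1 was below its control for IFI6, at 0.89 against 1.24. IFI44 and IFI44L are neighbours in the same RefSeq gene order. IFI44 had 3.20 and 4.89 TPM in the CMM12 KO libraries, against 4.19 TPM in the CMM12 control, and 6.94 and 14.4 TPM in the CMM2 KO libraries, against 5.78 TPM in the CMM2 control. IFI44L had 1.18 and 1.02 TPM in the CMM12 KO libraries, against 1.93 TPM in the CMM12 control, and 2.53 and 6.06 TPM in the CMM2 KO libraries, against 1.86 TPM in the CMM2 control. Both were highest in CMM2 KO 2, and only IFI44L was below the control in both CMM12 KO libraries.

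Within CMM12, 0 of the 30 genes were called by edgeR, against 0.00815% of all genes, and 0 by DESeq2, against 0.367%, with 6 genes of few counts left without an adjusted p there. The unadjusted edgeR p was under 0.05 for ISG20, OAS2 and SAMD9L, 3 of the 30, against 5.99% of all genes. The fitted change was above 0 for 24 of the 30, against 52.1% of all genes, with a median of 0.56 (0.51 with ISG20 and IFIT1, whose control was at 0, at their bounds) against 0.02 over all genes. On the log2(TPM + 1) scale in limma that median was 0.20. OAS2 had a log2 fold change of 1.32 (SE 0.43, 2.49-fold, adjusted p = 0.784 in edgeR), SAMD9L one of 0.76 (SE 0.29, adjusted p = 0.804) and OAS3 one of 0.75 (SE 0.36, adjusted p = 0.843). Both KO libraries lay above the control for 17 genes, against 35.6% of all genes, and below it for 3 (IFIT5, HERC6 and IFI44L), against 34.2%.

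Within CMM2, 0 of the 30 genes were called by edgeR, where 0% of all genes were called, and 0 by DESeq2, against 0.0489%. None had an unadjusted edgeR p under 0.05, against 1.90% of all genes. The fitted change was above 0 for 24 of the 30, against 50.1% of all genes, with a median of 0.40 against 0.00 over all genes. That median rested on the KO library used, at 0.70 without CMM2 KO 1 and 0.21 without CMM2 KO 2. The smallest p belonged to OAS1, with a log2 fold change of 0.78 (SE 0.35), and IFI35, with one of 2.46 (SE 1.09), followed by PARP9 at 1.14 (SE 0.61) and IFI44L at 1.21 (SE 0.76), each with an adjusted p of 1.00 in edgeR. Both KO libraries lay above the control for 15 genes, against 30.1% of all genes, and below it for 4 (IFIT5, ISG20, DHX58 and GBP1), against 30.9%.

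The KO effects of the lines were not shown to differ. In the test of the difference, CMM12 effect minus CMM2 effect, 0 of the 30 genes were called by edgeR, where 0% of all genes were called, and 0 by DESeq2, against 0.179%. The unadjusted edgeR p was under 0.05 for ISG20 alone, against 3.84% of all genes. Both KO libraries were above the control in CMM2 and below it in CMM12 for HERC6 and IFI44L, 2 of the 30, against 10.2% of all genes. The opposite held for ISG20, 1 of the 30, against 11.0%. IRF1 (0.83, SE 0.50) and OAS2 (0.91, SE 0.57) had the largest positive differences in log2 fold change relative to their error after ISG20, with adjusted p of 1.00 in edgeR.

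**Figure D3:**
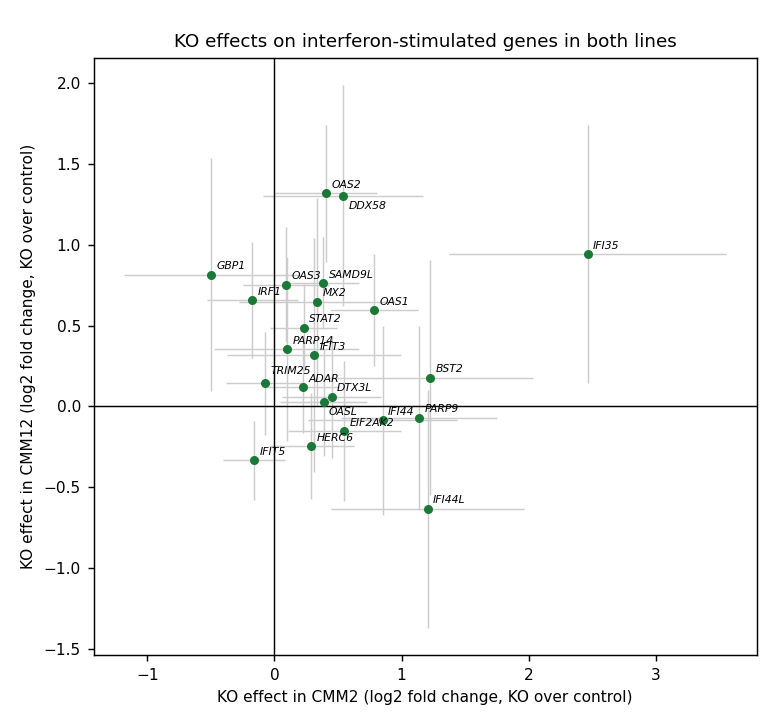
KO effect in CMM12 (vertical) against the KO effect in CMM2 (horizontal), each as a log2 fold change of KO over control, for the 23 genes with a mean of at least 20 counts; grey bars are 1 standard error to each side. Most points lie to the upper right of 0, IFIT5 to the lower left, and the bars of most genes cross 0 in at least a single line.

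Between the lines, 10 of the 30 genes passed the test. CMM12 was higher than CMM2 in IRF1, IFI35 and DTX3L, and lower in STAT2, IFIT5, OAS3, IFIT3, DDX58, TRIM25 and IFI44 (edgeR with genotype as a term, adjusted p from 0.00443 to 0.0476). Of all genes, 25.8% were called, with 14.6% of all genes called higher and 11.2% called lower. DESeq2 called the same 10 genes, against 32.2% of all genes. With limma on log2(TPM + 1), which called 6 of the 30, 68.2% of all calls were higher in CMM12, against 56.5% in edgeR. Leaving out any 1 library lowered the count of these genes: without CMM12 KO 1 and without CMM12 KO 2, 3 genes each were called, without the CMM12 control 2, without CMM2 KO 1 4, without CMM2 KO 2 5, and without the CMM2 control 2. STAT2 and IRF1 were each called in 18 of 19 alternative analyses, IFI35 in 13 and IFI44 in 7, and the direction of all 10 genes was the same in all 19.

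STAT2 averaged 13.1 ± 2.51 TPM in the CMM12 libraries and 25.8 ± 2.68 TPM in the CMM2 libraries (SD, n = 3 libraries each, KO and control together). Its log2 fold change was -1.13 (SE 0.17, adjusted p = 0.00443 in edgeR). IRF1 (ENSCAFG00000000851) averaged 31.4 ± 7.84 TPM in the CMM12 libraries and 8.66 ± 3.23 TPM in the CMM2 libraries (SD, n = 3 each), a log2 fold change of 1.63 (SE 0.27, adjusted p = 0.00617 in edgeR). The libraries of the lines did not overlap in CPM for either transcription factor, which held for 46.1% of all genes. STAT2 and IRF1 differed in opposite directions.

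IFI35 averaged 5.06 ± 1.64 TPM in the CMM12 libraries and 0.90 ± 0.822 TPM in the CMM2 libraries (SD, n = 3 each), the largest difference among the called genes at a log2 fold change of 2.53 (SE 0.59, adjusted p = 0.0197 in edgeR). DTX3L averaged 14.2 ± 1.24 TPM in CMM12 and 7.42 ± 2.35 TPM in CMM2, and its log2 fold change was 0.82 (SE 0.25). On the lower side, IFIT3 (log2 fold change -1.52, SE 0.44), DDX58 (-1.42, SE 0.42) and IFI44 (-1.32, SE 0.40) differed most, and OAS3 (-0.85, SE 0.24), TRIM25 (-0.67, SE 0.20) and IFIT5 (-0.61, SE 0.16) less.

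Every CMM12 library was above every CMM2 library in CPM for 4 genes (IRF1, DTX3L, IFI35 and OASL), against 24.6% of all genes. Every CMM12 library was below every CMM2 library for 10 genes, the 7 called lower together with HERC6, ADAR and IFI44L, against 21.5% of all genes. In either direction the lines did not overlap for 14 of the 30 genes (46.7%), near the 46.1% of all genes. Genes of the same family went different ways: OAS3 was lower in CMM12 while OASL averaged 12.5 ± 0.221 TPM in CMM12 and 8.69 ± 1.45 TPM in CMM2 (SD, n = 3 each), a difference that did not pass the test (adjusted p = 0.198 in edgeR). The median log2 fold change of the 30 genes was -0.41, against 0.04 over all genes. It ran from -0.47 to -0.10 over the alternatives. It was -0.17 with either control left out, -0.21 without CMM2 KO 2, and -0.14 in limma on log2(TPM + 1), where the median of all genes was 0.15.

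**Figure D4:**
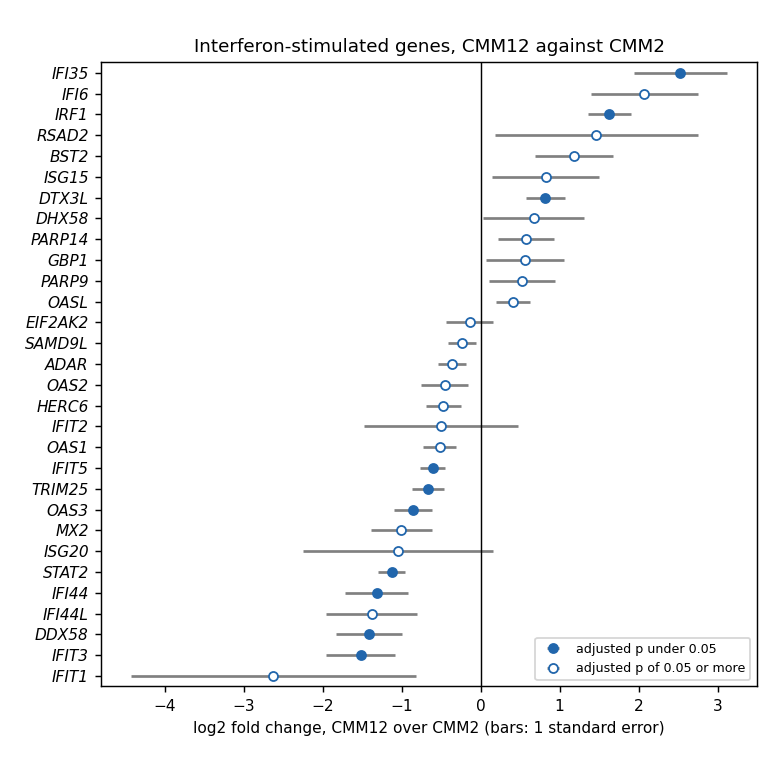
Fitted log2 fold change of CMM12 over CMM2 for each of the 30 tested genes, with bars of 1 standard error to each side; filled points have an adjusted p under 0.05. The 10 filled points run from IFI35 at 2.53 to IFIT3 at -1.52, and the widest bars belong to genes of few counts such as IFIT1, RSAD2 and ISG20.

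The genes upstream of the response were taken from lists of interferon pathway genes. The ligand genes that were listed, IFNB1, IFNK, IFNG, IFNA6 and IFNA7, 5 of 17 symbols, had 0 counts in every library, where 3 counts correspond to 0.259 to 0.294 CPM. The interferon-gamma target CXCL10 was at 0 in all libraries except CMM12 KO 1, with 0.20 TPM. None of the tested pathway genes was called for a KO effect across lines by edgeR or DESeq2. By list, this was 0 of 6 receptor and JAK-STAT genes, 0 of 13 sensing genes and 0 of 14 feedback inhibitors and nucleic acid enzymes. It was also 0 of 30 other interferon-induced genes and 0 of 7 interferon-gamma and chemokine genes. Of all genes, edgeR called 0% and DESeq2 called 0.0733%. The median log2 fold changes of the lists, in that order, were 0.09, 0.06, 0.05, 0.15 and 0.17, against 0.01 over all genes.

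JAK2, a kinase bound to interferon-gamma and cytokine receptors, had 30.0 and 35.1 TPM in the CMM12 KO libraries, against 48.5 TPM in the CMM12 control, and 39.4 and 31.4 TPM in the CMM2 KO libraries, against 50.2 TPM in the CMM2 control. It was below the control in all 4 KO libraries, with a log2 fold change of -0.45 (adjusted p = 0.987 in edgeR). TYK2, the kinase of the type I receptor, was above the control in all 4, at 18.0 and 24.5 TPM against 16.7 TPM in CMM12 and 21.9 and 32.9 TPM against 19.5 TPM in CMM2 (0.43, adjusted p = 0.987). IFI30, a lysosomal thiol reductase, and APOL6 were also above in all 4, with log2 fold changes of 0.68 each (adjusted p = 0.987 in edgeR). Of the 30 other interferon-induced genes, 7 had all 4 KO libraries above their control and 4 had all 4 below. Of all genes, 10.5% were above in all 4 and 10.6% below.

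Between the lines, 4 of the 13 sensing genes were called, where 25.8% of all genes were called and 14.6% were higher. All 4 were higher in CMM12: CGAS, the sensor of cytoplasmic DNA, the adaptors MAVS (0.89, SE 0.23) and TRAF3 (0.53, SE 0.16), and the transcription factor IRF3 (0.87, SE 0.19). CGAS was at 4.09, 2.38 and 2.38 TPM in CMM12 KO 1, KO 2 and the CMM12 control and at 0 in every CMM2 library, at least 10.4-fold higher in CPM against a floor of 3 counts per library. STING, which acts downstream of CGAS, was listed as TMEM173 with 0 counts in every library.

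Among the 14 feedback inhibitors and nucleic acid enzymes CISH was higher in CMM12 (1.14, SE 0.31). The RNase H2 subunit gene RNASEH2B (-1.26, SE 0.17) and the repressor IRF2 (-0.73, SE 0.21) were lower. Of the 30 other interferon-induced genes, 3 were higher (TRIM14, TDRD7 and APOL6) and 7 lower (IFI30, SP100, SP140, ZC3HAV1, LGALS9, PLSCR1 and TOR1B). Of the 7 interferon-gamma and chemokine genes GBP6 was higher and the immunoproteasome subunit PSMB9 lower. These calls were made by edgeR at an adjusted p under 0.05, by which 14.6% of all genes were called higher and 11.2% lower. The counts of 3 of 14, 10 of 30 and 2 of 7 lay near the 25.8% of all genes called in either direction.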

How the data were processed

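RNA libraries came from a NEBNext Ultra kit, per the labels' protocols. Per the submitters' processing notes the tools were STAR 2.7.3a and RSEM 1.3.3, with CanFam3.1 as the build. The strand setting of the counts is not given in the sources, so sense and antisense transcripts that overlap may share counts. Of the 31 listed genes only PARP9 and DTX3L had a count that was not whole. The authors deposited unscaled expected counts for each gene and library, and a second table of TPM values, which are scaled for transcript length, per the file headers. Where a symbol had several rows (OASL) the row with the highest mean count was used. Gene neighbours came from RefSeq order in another assembly, in which 37 of the 39 symbols matched.

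Expected counts were rounded, scaled with TMM and tested with edgeR 4.0.16 in R 4.3.3 (filterByExpr on the 4 groups, quasi-likelihood test, Benjamini-Hochberg adjustment over 12270 genes at 0.05). Effects across lines and between lines came from a model with line and genotype (3 residual degrees of freedom). Effects within a line and their difference came from a fit of 4 group means with 2 residual degrees of freedom, where the lone control is assumed to vary like the KO pairs. CPM were scaled with the TMM factors. Folds against a library at 0 used a floor of 3 counts per library, which covers counting error only. Libraries of the same line differed by more than sampling noise, at a chi-square per degree of freedom of 13.9 to 56.8. KO 1 against KO 2, treated as replicates, stood at 47.5 in CMM2 and 31.8 in CMM12, and CMM2 KO 1 against its control at 13.9. Alternatives were DESeq2 1.42.0 (NA adjusted p-values kept as NA), limma 3.58.1 on log2(TPM + 1) and log2(TPM + 0.1), other scalings, filters and fits, and leaving out each library. Any of the 39 genes could be named. Full statistics went to called genes or, with none, to the 4 with the smallest p, and pathway genes were named when called or, with none, the 2 with the smallest p. Other genes were named after their values were seen. One pathway gene that this rule would name is not reported here. The genes and lists were chosen with earlier results of these data known.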

Additional observations from a re-analysis of the deposited data

Results flagged for a closer look

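The KO libraries of the lines lay on opposite sides of their control for 3 genes. The CMM2 KO libraries were above and the CMM12 KO libraries below for 2 of 30 genes (6.67%), against 10.2% of all genes. The reverse held for 1 of 30 (3.33%), against 11.0% of all genes. Neither pattern was more frequent among these genes than among all genes. For ISG20 both CMM12 KO libraries were above the control (9 and 15 counts against 0) and both CMM2 KO libraries below (10 and 11 counts against 25). Its fitted difference, CMM12 effect minus CMM2 effect, was 7.96 on the log2 scale, a value that depends on the prior count because the CMM12 control was at 0 (adjusted p = 1.00 in edgeR). For IFI44L both CMM12 KO libraries were below the control (19 and 14 counts against 28) and both CMM2 KO libraries above (42 and 92 counts against 28), a difference of -1.84 (SE 1.05, adjusted p = 1.00 in edgeR). For HERC6 the CMM12 KO libraries were below (177 and 162 counts against 220) and the CMM2 KO libraries above (327 and 229 counts against 215), a difference of -0.54 (SE 0.47, adjusted p = 1.00 in edgeR). None of the differences passed the test.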

How the results depend on the processing

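The number of interferon-stimulated genes called for a KO effect was 0 across lines, in CMM12, in CMM2 and for the difference of the lines under every alternative run. Of all genes, edgeR called 0 across lines; DESeq2 called 9, edgeR with no low-count filter 15, limma on log2(TPM + 1) 3 and on log2(TPM + 0.1) 2, and leaving out a library gave 0 to 1. In CMM12 it called 1; DESeq2 called 45, no filter gave 26, at least 1 CPM in 2 libraries 0, the bias-adjusted fit 4, limma on log2(TPM + 1) and log2(TPM + 0.1) 0 each and limma with no filter 75, and leaving out a library gave 0 to 14. In CMM2 it called 0; DESeq2 called 6, no filter gave 1 and leaving out a library 0 to 1. For the difference it called 0; DESeq2 called 22, no filter gave 2 and leaving out a library 0 to 1. Between the lines edgeR called 3170 of all genes and 10 of the 30; the controls only gave 169 and 0, the KO libraries only 1694 and 2, leaving out a library 1499 to 3096 and 2 to 5, and limma 2938 and 6 on log2(TPM + 1), 3019 and 6 on log2(TPM + 0.1) and 2419 and 3 with no filter. limma on log2(TPM + 1) and log2(TPM + 0.1) put the median log2 difference of all genes between the lines at 0.15 and 0.17, against 0.04 in edgeR. With the KO number as a replicate block, 2959 genes and 6 of the 30 were called; the labels share only a number, and the KO 1 minus KO 2 differences of the lines correlated at 0.055 across 12270 genes, which are not independent replicates. The median log2 fold change of the tested genes across lines stayed between 0.22 and 0.56. In CPM, 7 of the 30 genes had every KO library above its control (10.5% of all genes). In TPM it was 6 (9.52%). Without CMM2 KO replicate 2 it was 11 in CPM (17.8%), a count that leaving out a library cannot lower. The cause of these changes was not tested. ISG15, ISG20, IFI6, RSAD2, IFIT1, IFIT2 and DHX58 averaged no more than 15 counts, which limits their precision.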
